A study of Mus musculus with 9 samples.

Results

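The genes of antigen presentation by the major histocompatibility complex (MHC) were followed in the mouse ovary. The 10 genes, taken by symbol, make up 5 of the class I route (H2-K1, H2-D1, B2m, Tap1 and Nlrc5) and 5 of the class II route (H2-Aa, H2-Ab1, H2-Eb1, Cd74 and Ciita). All 10 were found among the 33450 rows of the deposited gene table. C57BL/6J mice, an inbred strain, gave ovaries at 15 weeks of age. The 3 control mice ate standard chow with 16% fat, and 6 mice ate a diet with 60% fat for 10 weeks. Of these 6, 3 stayed lean (HFLN) and 3 became obese (HFOB), so these 2 groups were set by the animals' response and not by assignment. The series asks whether the diet goes with other levels of ovarian genes in the presence and in the absence of obesity.

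Each gene has 1 deposited FPKM per group, with the 3 animals combined, and a lower and an upper bound. FPKM are read fragments per length of transcript, adjusted for the size of the library, so levels can be set side by side between genes. No value of a single animal was analysed here, so there is no SD, no n behind a value and no p-value, and how many animals carry a difference is unknown. The depth of the libraries is unknown too. All 11 measured markers of ovarian tissue were found at 1 FPKM or more, with the granulosa hormone gene Inha at 1712 FPKM in control.

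MHC class I molecules sit on nearly all nucleated cells and show peptides of the cell's own proteins to CD8 T cells and NK cells. A heavy chain pairs with beta-2-microglobulin, and peptides cut by the proteasome are carried into the endoplasmic reticulum by the TAP transporter. MHC class II molecules are made mainly by macrophages, dendritic cells and B cells, and show peptides of engulfed proteins to CD4 T cells. NLRC5 and CIITA are the related master regulators of class I and class II genes, act through an upstream stretch with an X box and a Y box, and are both induced by interferon. Macrophages are the most common antigen-presenting cells of the ovary and clear regressing corpora lutea and atretic follicles. The haplotype of C57BL/6J mice makes no class II E molecule at the cell surface because its E alpha gene is defective, while the E beta gene H2-Eb1 is transcribed.

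RefSeq promoter windows (GRCm38.p6, the assembly behind the mm10 build that the submitters' processing notes name) were found for 6 of the 10 genes. H2-Ab1, Nlrc5, Cd74 and Ciita had none. H2-K1 had 2, and that used here is the window whose start lies nearest the end of its row in the deposited gene table. It lies inside the RefSeq span of H2-K1, which reaches 34000619. The 200 bases before the annotated start are shown for 5 of them, 5′ to 3′, because the X and Y box stretch on which NLRC5 and CIITA act lies there. Capitals mark matches to the motifs searched on both strands: the Y box as CCAAT, the X box core as AGNNAC, any base and GATG, the interferon-stimulated response element core as GAAA, any 2 bases and GAAA, the gamma-activated site as TTCNNNGAA and a kappaB site as GGGGATTCC.
H2-K1, chr17:34000348-34000547, strand minus: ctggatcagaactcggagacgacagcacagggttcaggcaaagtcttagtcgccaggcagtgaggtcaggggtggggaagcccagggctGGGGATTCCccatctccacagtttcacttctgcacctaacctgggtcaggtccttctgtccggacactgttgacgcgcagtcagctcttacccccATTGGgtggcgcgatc
H2-D1, chr17:35262894-35263093, strand plus: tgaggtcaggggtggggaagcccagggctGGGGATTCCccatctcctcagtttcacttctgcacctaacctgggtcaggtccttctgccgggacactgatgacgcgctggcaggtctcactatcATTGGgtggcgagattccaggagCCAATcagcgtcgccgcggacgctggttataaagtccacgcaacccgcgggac
B2m, chr2:122147487-122147686, strand plus: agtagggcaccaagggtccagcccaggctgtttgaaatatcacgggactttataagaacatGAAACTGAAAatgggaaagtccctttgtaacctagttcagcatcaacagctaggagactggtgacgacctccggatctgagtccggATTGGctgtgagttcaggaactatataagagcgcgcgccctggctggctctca
H2-Aa, chr17:34287824-34288023, strand minus: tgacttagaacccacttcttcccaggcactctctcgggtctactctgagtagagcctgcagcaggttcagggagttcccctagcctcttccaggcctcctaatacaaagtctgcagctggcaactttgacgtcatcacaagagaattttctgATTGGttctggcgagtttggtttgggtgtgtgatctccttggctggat
H2-Eb1, chr17:34305667-34305866, strand plus: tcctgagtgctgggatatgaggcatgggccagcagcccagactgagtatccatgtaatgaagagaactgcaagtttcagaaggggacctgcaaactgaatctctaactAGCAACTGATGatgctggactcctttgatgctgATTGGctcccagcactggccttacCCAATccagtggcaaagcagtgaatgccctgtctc

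All 6 windows held a Y box within 250 bases of the start, as did 33.8% of 32851 promoters of that length, and that of Tap1 lay at 222 to 218 bases before the start. H2-Eb1 was the one with a match to the X box core, at 92 to 82 bases, followed by an inverted Y box at 59 to 55, and 0.816% of all promoters held that core. B2m held the interferon-stimulated element core at 139 to 130 bases, a match found in 2.98% of promoters. The kappaB letters, chosen after the sequences were seen, stood in H2-K1 and H2-D1 and in 0.213% of promoters. None of the 6 windows matched the gamma-activated site, which 7.02% of promoters held. The H2-K1 and H2-D1 stretches were identical at 127 of 140 aligned bases. These matches describe letters and are no evidence of binding.

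None of the 10 genes was called in any comparison. A row was called when its log2(FPKM + 1) differed by at least 1 (2-fold) and the groups' intervals lay apart, among rows that reached 1 FPKM in any group. Of all rows considered, 0.283% were called in HFLN against control, 0.366% in HFOB against control and 0.195% in HFOB against HFLN. All 10 genes passed the filter on low values, Ciita only through its values in HFLN and HFOB. In all 30 pairs of group values the intervals overlapped, while 0.283%, 0.372% and 0.207% of all rows had intervals apart in these comparisons. The bounds lay between 33.4% and 68.3% of the value away from it, and the widest of the 30 log2 differences was 0.45. The orders described from here on are therefore orders of group values inside overlapping intervals.

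H2-K1 (chromosome 17, 33996012 to 34000619), a classical class I heavy chain, stood at 185 FPKM in the control group (deposited interval 122 to 249), 245 in the HFLN group (153 to 337) and 212 in the HFOB group (139 to 286). H2-D1 (chromosome 17, 35263094 to 35267497), the other classical heavy chain of this strain, stood at 150.0 FPKM (99.1 to 201), 195 (126 to 265) and 174 (115 to 234). Both heavy chains had their highest value in HFLN and their lowest in control, with log2 differences of 0.40 and 0.38 between these groups. The corresponding differences of HFOB from control were 0.19 and 0.22. The ratio of H2-K1 to H2-D1 in FPKM was 1.24 in the control group, 1.25 in the HFLN group and 1.22 in the HFOB group. Class I genes are a family of close copies, and their transcripts share sequence: 8.79% of the 50-base windows of the H2-K1 transcript and 14.3% of those of H2-D1 occur in transcripts of other genes (GENCODE M21). Over 100 bases these shares were 0% and 4.64%, and the sources used here do not say how reads that fit several genes were shared out.

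B2m (chromosome 2, 122147687 to 122153082), the light chain of all class I molecules, was the most abundant of the 10 genes in each group, at 653 FPKM in the control group (406 to 900), 785 in the HFLN group (470 to 1100.2) and 644 in the HFOB group (401 to 888). HFLN was again highest, and HFOB lay 1.37% below control. With summed FPKM of H2-K1 and H2-D1 as the base, B2m stood at a ratio of 1.95 in the control group, 1.78 in the HFLN group and 1.67 in the HFOB group, so that the heavy chains were higher relative to B2m in both diet groups.

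Tap1 (chromosome 17, 34187556 to 34197225) encodes a subunit of the peptide transporter. Its row with the highest mean also holds Tap2, the gene of the partner subunit, so its value is that of both genes together: 53.7 FPKM in the control group (28.1 to 79.2), 57.8 in the HFLN group (31.2 to 84.4) and 49.5 in the HFOB group (26.8 to 72.2). A second row with Tap1 alone had 0.738, 1.17 and 0.831 FPKM, each with a lower bound of 0. Nlrc5 (chromosome 8, 94434335 to 94527272), the class I regulator, stood at 4.43 FPKM in the control group (1.41 to 7.45), 6.42 in the HFLN group (2.78 to 10.0) and 5.04 in the HFOB group (1.90 to 8.19). Its log2 difference of 0.45 in HFLN against control was the widest of the 10 genes, and its bounds lay 68.3%, 56.6% and 62.4% of the value away from it in control, HFLN and HFOB.

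H2-Aa (chromosome 17, 34282744 to 34287823), the alpha chain of the class II A molecule, stood at 194 FPKM in the control group (128 to 261), 223 in the HFLN group (146 to 299) and 224 in the HFOB group (148 to 300). Its partner H2-Ab1 (chromosome 17, 34263227 to 34269418), the beta chain, stood at 172 FPKM (114 to 230), 196 (130 to 263) and 201 (134 to 268). The pair kept a ratio of 1.13, 1.13 and 1.11 in FPKM across control, HFLN and HFOB, and the values of both diet groups lay close to each other above control. H2-Eb1 (chromosome 17, 34305867 to 34316674) stood at 88.7 FPKM in the control group (58.7 to 119), 107 in the HFLN group (70.5 to 143) and 98.9 in the HFOB group (65.7 to 132). Its highest value was in HFLN, where those of H2-Aa and H2-Ab1 were in HFOB, at a log2 difference of 0.26 from control.

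Cd74 (chromosome 18, 60803849 to 60812652), the invariant chain that guides class II molecules to the compartment where they are loaded, stood at 410 FPKM in the control group (258 to 561), 460 in the HFLN group (281 to 640) and 448 in the HFOB group (275 to 621). Its row also carries a microRNA gene, Mir5107. Cd74 exceeded H2-Aa by ratios of 2.11, 2.07 and 2.00 in these groups. Ciita (chromosome 16, 10480014 to 10531064), the class II regulator, was the lowest of the 10 genes at 0.938 FPKM in the control group (0.340 to 1.54), 1.08 in the HFLN group (0.429 to 1.73) and 1.13 in the HFOB group (0.449 to 1.81). No 50-base window of the transcripts of the 5 class II genes, B2m or Nlrc5 occurred in another gene.

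**Figure D1:**
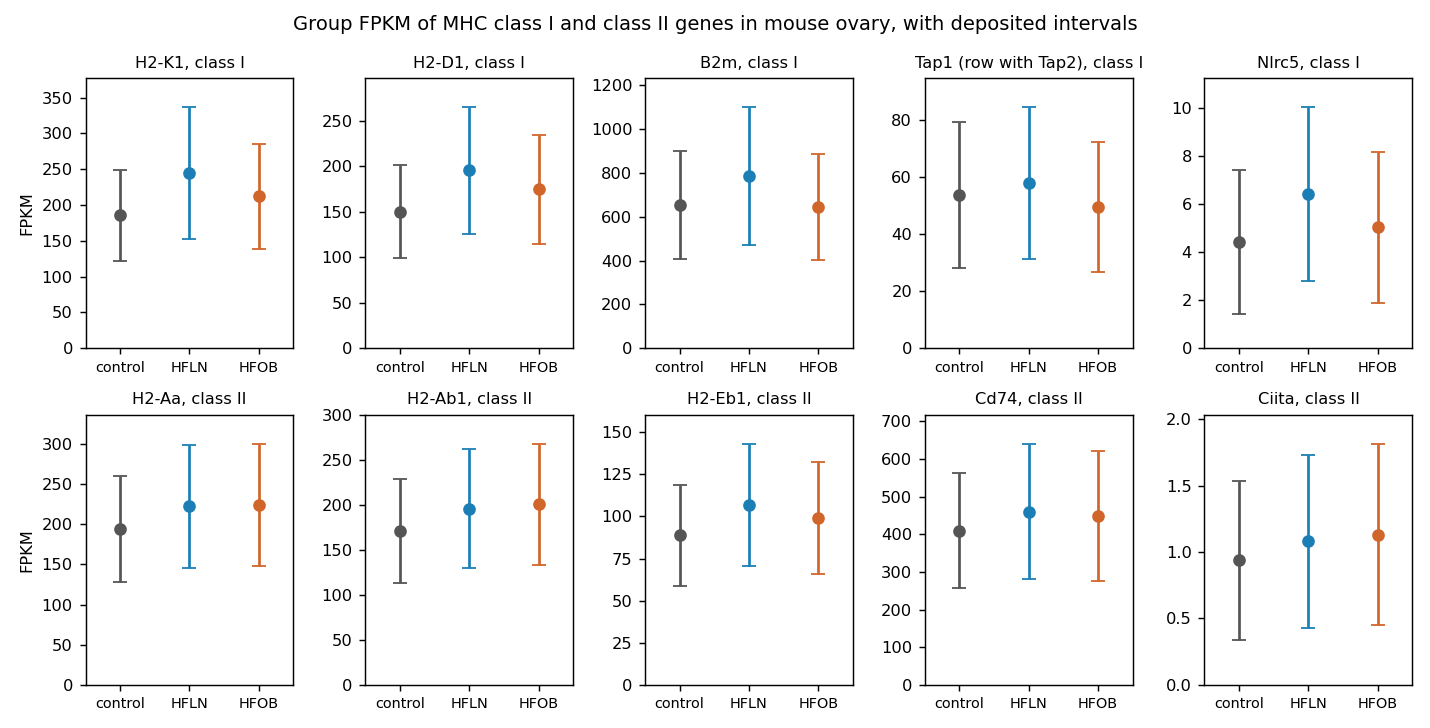
Deposited FPKM of the 10 genes (y axis, from 0, a scale for each panel) in control, HFLN and HFOB; points are group values of 3 animals combined and bars are the deposited lower and upper bounds, whose confidence level is not given. The class I genes in the upper row have their highest point in HFLN, the class II genes in the lower row have both diet groups above control, and all bars of a panel overlap.

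In FPKM of control the genes ranked B2m, Cd74, H2-Aa, H2-K1, H2-Ab1, H2-D1, H2-Eb1, the Tap1 and Tap2 row, Nlrc5 and Ciita. Neighbours in this order had overlapping intervals, except the Tap1 and Tap2 row and Nlrc5. Among protein-coding rows that reached 1 FPKM in any group, B2m ranked 86th from the top in control, 52nd in HFLN and 77th in HFOB, and Cd74 ranked 136th, 105th and 117th. Ciita ranked 13433rd in control. The regulators thus stood far below the genes they regulate, with Nlrc5 at 4.72, 5.94 and 4.46 times the FPKM of Ciita in control, HFLN and HFOB.

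Mice that stayed lean on the diet were set against chow-fed mice to describe the diet without obesity. All 10 genes had a higher value in HFLN, where 50.1% of all rows considered did, and 45.9% of protein-coding rows of at least 5 FPKM. The median log2 difference was 0.38 over the 5 class I genes and 0.19 over the 5 class II genes, against 0.00037 over all rows. Scaled to the sum over protein-coding rows, these medians were 0.59, 0.41 and 0.19, and 83.3% of all rows were then higher in HFLN. Among protein-coding rows of at least 5 FPKM, 98.1% had a lower log2 difference than H2-K1, 97.9% a lower one than H2-D1, 95.6% a lower one than B2m, 80.6% a lower one than the Tap1 and Tap2 row and 98.5% a lower one than Nlrc5. For H2-Aa, H2-Ab1, H2-Eb1, Cd74 and Ciita these shares were 92.1%, 91.8%, 95.6%, 89.5% and 79.7%, so that the classes overlapped. Ciita itself lies below 5 FPKM, so its share is not on the same footing as the others. Its log2 difference was 0.10 with 1 FPKM added to each value and 0.18 with 0.1 FPKM added. The genes are not replicates: the chains of 1 molecule come from the same cells and the same 3 animals, so 10 of 10 in 1 direction is not 10 separate observations.

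Mice that became obese were set against the same control values, which enter both comparisons. The 5 class II genes were again all higher, with a median log2 difference of 0.16 and a range from 0.13 for Cd74 to 0.23 for H2-Ab1. Of the class I genes, H2-K1, H2-D1 and Nlrc5 were higher while B2m and the Tap1 and Tap2 row were lower, at -0.02 and -0.11, with B2m turning to 0.07 when each group was scaled to its sum over protein-coding rows. In all, 8 of 10 genes had a higher value in HFOB, where 47.0% of all rows and 44.0% of protein-coding rows of at least 5 FPKM did. The class I median was 0.16, and the difference between the class medians was 0.00017. Scaled to the protein-coding sum, the medians were 0.23 for class I and 0.25 for class II, with 68.7% of all rows higher.

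Between the diet groups, all 5 class I genes were lower in HFOB than in HFLN, where 52.2% of all rows and 50.9% of protein-coding rows of at least 5 FPKM were lower, with a median log2 difference of -0.22 and a range from -0.29 for Nlrc5 to -0.16 for H2-D1. B2m was 17.9% lower and H2-K1 13.3% lower in HFOB. The class II median was 0.01, with H2-Aa, H2-Ab1 and Ciita at 0.01, 0.03 and 0.04 and Cd74 and H2-Eb1 at -0.04 and -0.11. With each group scaled to its sum over protein-coding rows, the values of H2-Aa, H2-Ab1 and Ciita turned to -0.11, -0.09 and -0.03, so that their direction between the diet groups depends on the scaling. That scaling shifts log2 ratios of FPKM by 0.22 in HFLN against control, 0.09 in HFOB against control and -0.12 in HFOB against HFLN, and moves genes of low FPKM less on the log2(FPKM + 1) scale. It also took the class I median between the diet groups to -0.34 and that of class II to -0.11, with 21.6% of all rows higher in HFOB in place of 47.7%. The gap between the class medians, class I minus class II, was 0.19 in HFLN against control and -0.23 in HFOB against HFLN.

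**Figure D2:**
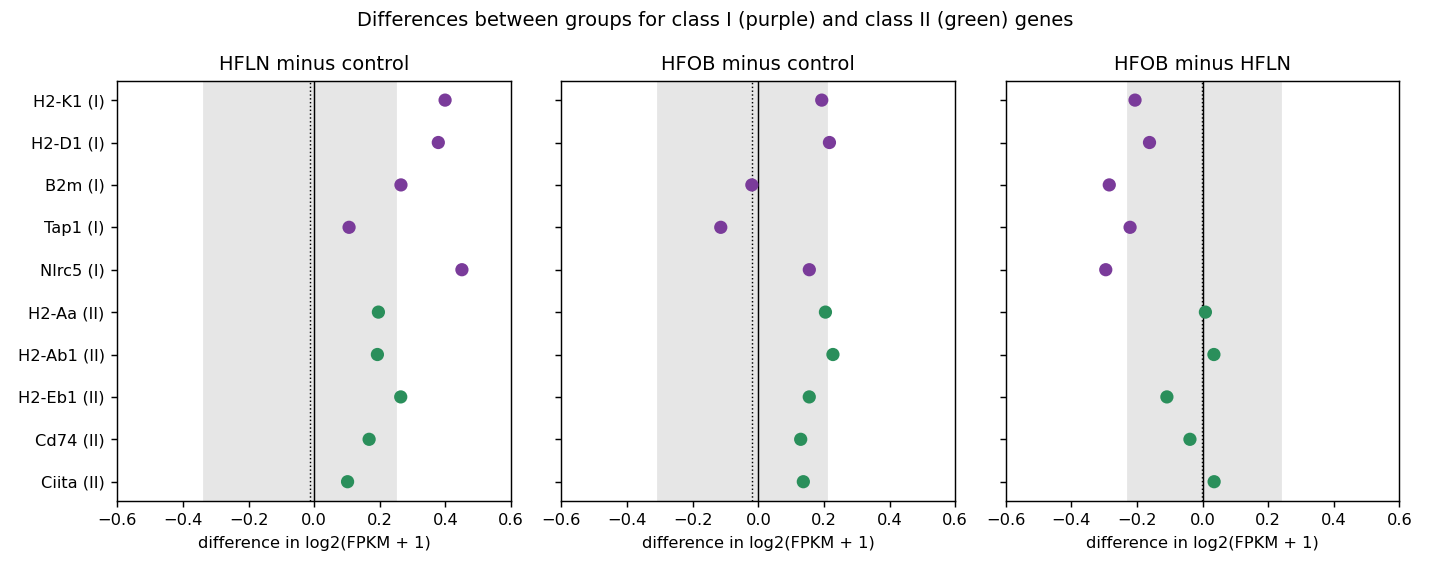
Differences in log2(FPKM + 1) (x axis) for the 10 genes in the 3 comparisons; the grey band spans the central 90% of protein-coding rows of at least 5 FPKM, the dotted line is their median and the solid line is 0. H2-K1, H2-D1 and Nlrc5 stand at 0.40, 0.38 and 0.45 in HFLN minus control, and in HFOB minus HFLN the class I genes lie between -0.29 and -0.16 while the class II genes lie between -0.11 and 0.04.

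Of the other class I heavy chains and class I-like molecules, 21 of 25 symbols had a row and 16 reached 1 FPKM. H2-Q6, H2-Q9, H2-T9 and Cd1d2 were not matched, and H2-Bl was listed at 0. In HFLN 12 of the 16 had a higher value than in control, with a median log2 difference of 0.14. Among them H2-Q8, a member of the Q cluster of nonclassical chains, stood at 3.46, 6.29 and 4.07 FPKM in control, HFLN and HFOB. H2-Q4 and H2-Q7 of the same cluster stood at 25.9, 37.6 and 29.0 FPKM and at 13.1, 20.0 and 15.7. H2-Q10, whose product is secreted, ran the other way at 13.4 FPKM in the control group, 8.52 in the HFLN group and 12 in the HFOB group. H2-T23, which encodes the Qa-1 molecule that holds NK cells in check, stood at 66.5, 62.7 and 54.0 FPKM. In HFOB 12 of 16 were above control with H2-Q5 highest at a log2 difference of 0.29, and 12 of 16 were below HFLN. These genes are near copies of each other, so single members are uncertain.

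The 6 further genes of class I peptide loading with a row of their own were all higher in HFLN than in control, with a median log2 difference of 0.12, and all lower in HFOB than in HFLN, with a median of -0.18. Tapbp, the tapasin that bridges TAP and the heavy chain, stood at 65.6, 71.7 and 71.1 FPKM. Tapbpl, a tapasin relative, stood at 7.19, 8.07 and 6.82 FPKM, and Pdia3, the disulfide isomerase of the loading complex, at 377, 396 and 335. Of the 6 genes of the interferon-inducible immunoproteasome and its activator, 3 were higher and 3 lower in HFLN. The catalytic subunits Psmb8 and Psmb9, encoded beside the TAP genes, were highest there at 38.3, 47.1 and 43.0 FPKM and at 15.1, 18.5 and 15.1. The other catalytic subunit, Psmb10, stood at 40.8, 40.4 and 39.1 FPKM. The activator subunits Psme1 and Psme2 stood at 189, 185 and 177 and at 26.7, 25.8 and 25.3, and the row of Psme2b, merged with other genes, at 98.6, 99.5 and 96.5. All 6 were higher in HFLN under the scaling to the protein-coding sum. The 14 constitutive proteasome subunits were all lower in HFLN than in control, with a median of -0.22, and all lower in HFOB, with a median of -0.11. Psmb3 stood at 59.2, 45.0 and 46.4 FPKM. Under the scaling to the protein-coding sum these medians were -0.0065 and -0.017, with 6 and 4 of the 14 higher than control.

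Of the other class II genes 7 rows reached 1 FPKM, and 5 of them were higher in HFLN than in control, with a median log2 difference of 0.21. H2-DMa, a chain of the peptide exchanger of class II molecules, stood at 10.7, 12.5 and 11.8 FPKM. H2-Ob, a chain of the inhibitor of that exchanger, stood at 0.996, 1.73 and 0.899 FPKM. Ctss, the protease cathepsin S that trims the invariant chain, had the order control, HFLN, HFOB at 58.7 FPKM (38.6 to 78.8), 73.4 (47.4 to 99.3) and 86.8 (57.0 to 117), a log2 difference of 0.56 in HFOB against control. Lgmn, another lysosomal protease, ran the other way at 315, 272 and 262 FPKM. H2-Ea was not matched.

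As deposited, the factors that bind the X and Y boxes had small differences in both directions. Of 7 genes, 4 were higher in HFLN than in control and 3 lower, with a median log2 difference of 0.04. Under the scaling to the protein-coding sum all 7 were higher in HFLN, with a median of 0.25, as were 83.3% of all rows. All 7 were then lower in HFOB than in HFLN, with a median of -0.12, while 21.6% of all rows were higher in HFOB. Rfx5, the X box factor lost in a form of bare lymphocyte syndrome, stood at 7.27, 8.54 and 8.57 FPKM, and Rfxap, its partner, at 10.8, 9.61 and 10.0.

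Among the 17 genes of the interferon-gamma route that reached 1 FPKM, 13 were higher in HFLN than in the control group (median 0.21) and 12 were lower in HFOB than in the HFLN group (median -0.22). Ifng itself stayed below the filter, at 0.0557, 0.129 and 0.0322 FPKM, each with a lower bound of 0. Irf1, an interferon-induced transcription factor that acts on Nlrc5 and Ciita, stood at 29.6, 33.2 and 31.8 FPKM. Gbp3, an interferon-induced GTPase, stood at 10.6 FPKM in the control group (6.20 to 14.9), 17.5 in the HFLN group (10.7 to 24.2) and 10.0 in the HFOB group (5.83 to 14.2). Genes of the type I interferon response had wider differences, also with the highest values in HFLN: all 13 were higher in HFLN than in control, with a median of 0.59, and all 13 lower in HFOB than in HFLN, with a median of -0.65. Of these, Ifit3 is the member with the widest difference and shares its row with Ifit3b, and its values stood at 5.99, 14.7 and 6.41 FPKM. HFOB lay close to control in this list, at a median of -0.07, which turned to 0.0009 under the scaling to the protein-coding sum. Across all 9 lists 91 rows reached 1 FPKM, and in 0 of them did the intervals of any pair of groups fall apart, which at the shares of 0.283%, 0.372% and 0.207% over all rows says nothing particular of these lists.

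**Figure D3:**
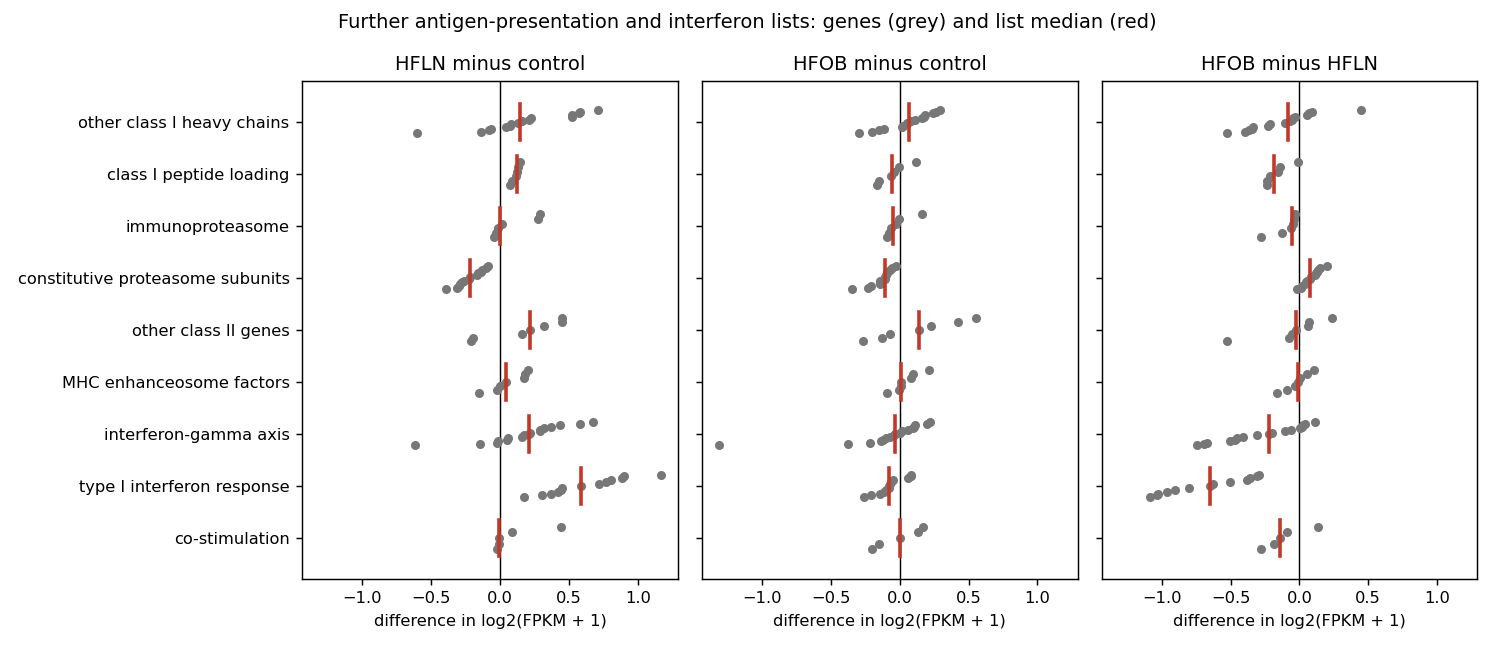
Differences in log2(FPKM + 1) (x axis) for the genes of the 9 further lists (grey points, rows of at least 1 FPKM) with the list median (red bar) in the 3 comparisons. The type I interferon list has medians of 0.59 in HFLN minus control and -0.65 in HFOB minus HFLN, and the constitutive proteasome subunits have medians of -0.22 and 0.08, the latter turning to -0.04 under the scaling to the protein-coding sum.

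In RNA of a whole ovary, fewer cells of a type and less RNA per cell cannot be told apart. Markers of the cells that carry class II were therefore read beside the class II values. The 5 pan-leukocyte genes summed to 101 FPKM in the control group, 98.5 in the HFLN group and 108 in the HFOB group, with Cd52 alone lower in HFLN than in control (59.4 and 49.0 FPKM). The other 4 were higher there, so that the list's median log2 difference was 0.26 while its sum was lower. Ptprc, the leukocyte antigen CD45, stood at 2.61, 3.72 and 3.17. Of 11 macrophage markers, 4 were higher in HFLN than in control and 8 in HFOB, and the 9 with a row not merged with another coding gene summed to 412, 390 and 434 FPKM. Adgre1, the F4/80 antigen, stood at 4.15, 4.77 and 5.04 FPKM, and C1qc, a complement component of tissue macrophages, at 120, 108 and 120. The row of Lyz1 and Lyz2, the lysozyme genes, was highest in HFOB at 252, 236 and 337 FPKM. The 9 dendritic cell markers summed to 22.5, 23.5 and 23 FPKM. B cell and T or NK cell markers were near the floor: the 6 B cell genes summed to 3.55, 3.63 and 3.94 FPKM, and the 9 unmerged T and NK cell genes to 7.81, 10.2 and 8.76 with Cd3e at 0.483, 0.577 and 0.265. None of the markers was listed at 0. The class II chains H2-Aa, H2-Ab1 and H2-Eb1 summed to 454 FPKM in the control group, 525 in the HFLN group and 524 in the HFOB group. As deposited, the macrophage sum thus had its lowest value in HFLN, where the class II sum stood above control. That macrophage sum was mostly C1qa, C1qb and C1qc, at 117, 132 and 120 FPKM in control and 115, 123 and 108 in HFLN. Of its other genes, Adgre1, Fcgr1, Mrc1 and Mertk were higher in HFLN than in control, and Csf1r and Cd14 were lower. The median log2 difference of the 11 macrophage genes in HFLN against control was -0.03 and turned to 0.18, with all 11 higher, under the scaling to the protein-coding sum. The part of these cells in the class II values was not tested.

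Markers of epithelia had their highest sums in HFLN, as the class I genes had their highest values. The 7 genes of oviduct-type ciliated epithelium were all higher in HFLN than in control and all lower in HFOB, summing to 108, 181 and 76.0 FPKM. The 7 genes of surface and secretory epithelium were all higher in HFLN and summed to 359, 432 and 346 FPKM. Endothelial genes, from another cell type rich in class I, summed to 115, 110 and 104 FPKM as deposited, with Pecam1 at 33.4, 31.0 and 29.8. The part of epithelium and endothelium in the class I values was not tested. In HFOB the ciliated genes lay below control, as did the Tap1 and Tap2 row and, as deposited, B2m, while H2-K1, H2-D1 and Nlrc5 lay above it. The 5 adipocyte genes summed to 111, 116 and 186 FPKM, mostly from Fabp4 at 77.2, 87.2 and 139. As deposited, 2 of the 5 were higher in HFLN than in control and 4 in HFOB. Plin1, the other, stood at 13.0, 10.6 and 12.3 FPKM. Of the 5, Lep, the gene of the hormone leptin, was called in HFOB against both other groups. It stood at 0.223 FPKM in the control group (0 to 0.455), 0.332 in the HFLN group (0.0392 to 0.625) and 2.1 in the HFOB group (0.759 to 3.44). Lep passed the filter at 1 FPKM only through HFOB, the group where it was high. Of 63 marker rows that reached 1 FPKM, 1 was called in each of these comparisons. Over all rows considered, 0.366% were called in HFOB against control and 0.195% in HFOB against HFLN.

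**Figure D4:**
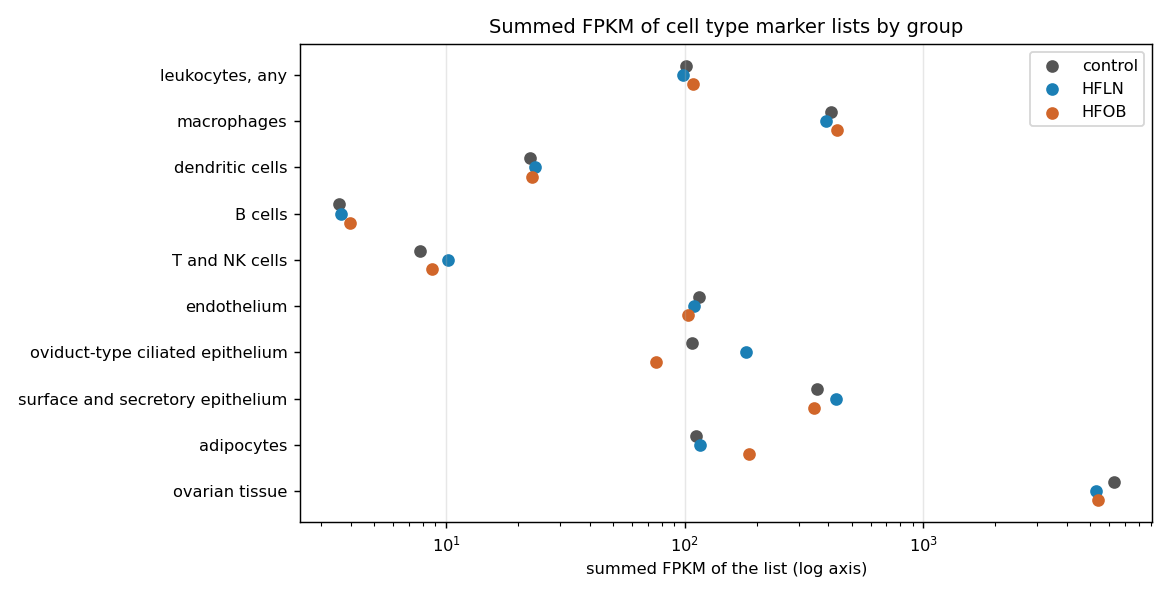
Summed FPKM of each marker list (x axis, log scale) in control, HFLN and HFOB, leaving out rows merged with another protein-coding gene; points are group values without an error. The ciliated list spreads from 76.0 to 181 FPKM, while the macrophage list lies between 390 and 434 and the dendritic cell list between 22.5 and 23.5.

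Likeness of pattern was measured as the Euclidean distance over the 3 group values of log2(FPKM + 1), centred for each gene, among 9113 protein-coding rows of at least 5 FPKM in every group and outside all lists. Nearest to the mean class I profile were Atrn, Trim12a, Gpr182, Gpcpd1 and Hdc, at distances from 0.0043 to 0.015. Atrn stood at 5.32, 6.85 and 5.70 FPKM and Hdc, the histidine decarboxylase, at 56.2, 69.4 and 59.4. Nearest to the class II profile were 4930426D05Rik, Dusp11, Rbms3, Slc25a42 and Ap4e1, at distances up to 0.0065, with Dusp11 at 26.9, 30.8 and 30.5 FPKM. With 3 points per gene, this nearness is a description only.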

How the data were processed

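RNA of whole ovaries from 9 mice was sequenced, in 3 groups of 3. Per the submitters' processing notes, reads were handled with Cuffdiff 2.2.1.3, Cufflinks 2.2.1.0, TopHat2 2.1.0 and Trimmomatic 0.32.3 on mm10. The authors deposited FPKM per gene and group with lower and upper bounds in FPKM, per the file headers. The annotation, scaling, strand setting and confidence level were not given in the sources used here, and reads of a gene and an antisense partner may be mixed.

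Of 36886 RefSeq identifiers, 99.2% matched RefSeq symbols (GRCm38.p6), and where a symbol had several rows, that of the highest mean was kept. Coordinates are RefSeq gene spans and cover all exons. Differences were taken on the log2(FPKM + 1) scale, which understates those of low genes, with pandas 2.3.3. Since the table holds group values, the planned limma fit was not run and the interval rule was used. The code of the rule was checked on simulated group values without noise, which does not measure its errors on these data. The members and lists were chosen with earlier results of these data known. Named were all 10 members, the highest and lowest gene of each list per comparison (for marker lists, some), and a fixed panel. Genes outside that rule, H2-Q4, H2-Q7, Inha and Pecam1 among them, were chosen after their values were seen. Alternatives were another pseudocount, other filters, 2 other scalings, rows summed per symbol and 2 other call rules. The scalings of the list medians were added after the values were seen.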

Additional observations from a re-analysis of the deposited data

How the results depend on the processing

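No call was made for any of the 10 genes in any comparison under the alternatives run for calls: a pseudocount of 0.1 FPKM, no filter, a filter at 5 FPKM, both other scalings, a fold of 1.5, and each value outside the other group's interval. The same count of 0 under the last rule stands beside 0.762%, 0.780% and 0.537% of all rows in HFLN against control, HFOB against control and HFOB against HFLN. The summed rows have no interval and gave no call. The class I minus class II gap of medians ranged from 0.184 to 0.187 in HFLN against control and from -0.234 to -0.206 in HFOB against HFLN, and from -0.0245 to 0.00017 in HFOB against control. The scalings change all genes of a group by the same factor and so move both class medians nearly alike. These ranges therefore could not test the gap against scaling. Scaling to the sum over protein-coding rows left 0 of 10 genes higher in HFOB than in HFLN in place of 3, took the class II median there from 0.01 to -0.11, and made 83.3% of all rows higher in HFLN than in control in place of 50.1%. With the filter at 5 FPKM, which leaves out Ciita, the class II median there was -0.01. Of the list medians, those of the class I loading, immunoproteasome, interferon-gamma and type I interferon lists in HFOB against control changed sign under the scaling to the protein-coding sum, as did those of the immunoproteasome, co-stimulation, macrophage, endothelial, adipocyte and ovarian lists in HFLN against control, and those of the constitutive proteasome, leukocyte, macrophage and ovarian lists between the diet groups. Scaling to the median ratio changed the sign of the immunoproteasome and co-stimulation medians in HFLN against control. No paired analysis was possible because the table holds 1 value per group, and leaving out single animals was not run for the same reason. The depth is unknown, so what it limits could not be stated.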

Other observations

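Co-stimulatory genes, the second signal that T cells need beside a peptide on an MHC molecule, were low. Cd80, Cd86 and Cd40 stood at 1.3, 1.27 and 1.00 FPKM, at 1.59, 1.76 and 1.60, and at 1.20, 1.18 and 0.983 in control, HFLN and HFOB, and Cd274, which encodes the inhibitory ligand PD-L1, at 0.979, 1.70 and 1.22 with overlapping intervals. Icosl, the ligand of the co-stimulator ICOS, was the most abundant of that list at 18.1, 18 and 19.9 FPKM.

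Socs1, which encodes an inhibitor of the JAK kinases downstream of interferon receptors, had its highest value in control and its lowest in HFOB. It stood at 37.2 FPKM in the control group (15.6 to 58.8), 23.9 in the HFLN group (7.48 to 40.2) and 14.4 in the HFOB group (3.33 to 25.5). Its log2 difference of -1.31 in HFOB against control is past 2-fold, but the intervals overlap and the gene was not called.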
